A study of Homo sapiens with 12 samples.

Results

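Focal adhesion adaptors and kinases are the proteins inside the cell that link integrins to actin and carry signals from these contacts. The 49 genes described here were taken by name from the count table as intracellular focal adhesion proteins and partners of paxillin, with the paxillin family itself left out. They are 49 of 36137 listed genes, and all 49 were among the 18468 genes with enough counts to be tested. They were chosen by function, with earlier results of these data known.

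Poly(A) RNA came from LNCaP, an androgen-sensitive line grown from a prostate cancer metastasis in a lymph node. Every culture had been transfected with an siRNA for 48 h and kept without serum for 12 h before its treatment of 24 h. The 4 groups of 3 libraries were non-specific siRNA with ethanol vehicle, non-specific siRNA with 2.5 nM dihydrotestosterone (DHT, a potent androgen), PXN siRNA with vehicle, and PXN siRNA with DHT. PXN encodes paxillin. The labels name 1 cell line and do not tie replicates to cultures of their own, so each p-value sets a difference against the spread of these samples, part or all of which may be technical.

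Focal adhesions form where integrins, bound to matrix outside the cell, recruit talin and kindlin to their tails. Paxillin is a scaffold at these sites. It binds focal adhesion kinase, vinculin, parvins and GIT proteins, and its phosphorylated tyrosines recruit the CRK adaptors, which with CAS proteins and DOCK exchange factors activate Rac. The complex of integrin-linked kinase, PINCH and parvin forms a second link to actin, while zyxin, Ena/VASP and α-actinin act on the actin filaments.

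The libraries held 34321000 to 38633456 counts, so that 1 CPM (counts scaled to a common library size) stood for 33.65 to 38.25 counts. PXN itself, read first as a check of the labels, lay between 99.7 and 113 CPM in the 6 non-specific siRNA libraries and between 14.9 and 21.2 CPM in the 6 PXN siRNA libraries, so every library matched the siRNA of its label. Mitochondrially encoded genes took 8.42% ± 0.303 of counts with PXN siRNA and 5.75% ± 1.10 with non-specific siRNA (SD, n = 6 each). The 8 luminal prostate markers were all present, with summed levels of 4096 to 4623 CPM (non-specific siRNA, vehicle), 6413 to 6636 (non-specific siRNA, DHT), 2549 to 2989 (PXN siRNA, vehicle) and 3093 to 3559 (PXN siRNA, DHT). Of 15 markers of basal, stromal, endothelial and blood cells, 13 were listed and 7 had enough counts to be tested. The sum of the 13 was 45.7 to 55.2 CPM in the non-specific siRNA libraries and 62.0 to 74.5 CPM in the PXN siRNA libraries. COL1A1, at 18.8 to 38.3 CPM over all libraries, and the endothelial marker VWF, at 12.8 to 22.0 CPM, were the highest. KRT5, TP63, DCN, PECAM1, PTPRC and CD68 were near 0 in every library. Among the 7, COL1A1 (log2 fold change 0.57) and TAGLN (0.56) were called higher with PXN siRNA under vehicle, and COL3A1 (-0.80) and LUM (-2.22) lower. The part of these differences in the results on focal adhesion genes was not tested, except that leaving out the mitochondrially encoded genes gave 12 higher and 14 lower focal adhesion genes with PXN siRNA under vehicle and 17 and 15 under DHT, against 12 and 15, and 17 and 15, with them. In bulk RNA, fewer cells of a kind and less RNA per cell cannot be told apart.

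To compare levels between genes, CPM were divided by the exon length of each gene in GENCODE 29. With non-specific siRNA and vehicle, the actin crosslinker α-actinin-4 (ACTN4) stood highest at 73.7 CPM per kb, followed by the kinase PAK2 at 61.5, the phosphatase PTPN11 (SHP2) at 38.7, filamin A (FLNA) at 37.4 and the adaptor CRK at 30.9. At the other end, the Src-family kinase FYN stood at 0.128 CPM per kb, integrin-linked kinase (ILK) at 0.0882, the PINCH protein LIMS2 at 0.0413 and tensin-1 (TNS1) at 0.0408. Close relatives therefore sat far apart: LIMS1 at 6.50 CPM per kb against LIMS2 at 0.0413, talin-1 (TLN1) at 26.4 against talin-2 (TLN2) at 0.67, PARVB at 5.54 against PARVA at 0.651, and YES1 at 18.8 and SRC at 9.13 against FYN. CRKL, at 15.4 CPM per kb, lay below its paralog CRK in every group. ILK, LIMS2, FYN and TNS1 rested on few counts in a library, 5 to 49, 2 to 13, 20 to 66 and 16 to 42. At such counts even 2-fold changes could be missed. ILK carries a further limit, since 78.5% of its 3484 exon bases are shared with genes on the opposite strand, 68.1% with TAF10 alone, and whether the counting used strand is not stated in the labels. GIT2 shares 25.5% of its exon bases in this way, 22.1% with TCHP. PAK1 (14.8%), ACTN4 (14.2%) and VCL (11.1%) share smaller parts with genes on the opposite strand. LIMS1 has near-identical gene copies, which were not analysed here, and how reads fitting more than 1 copy were counted is not stated.

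**Figure D1:**
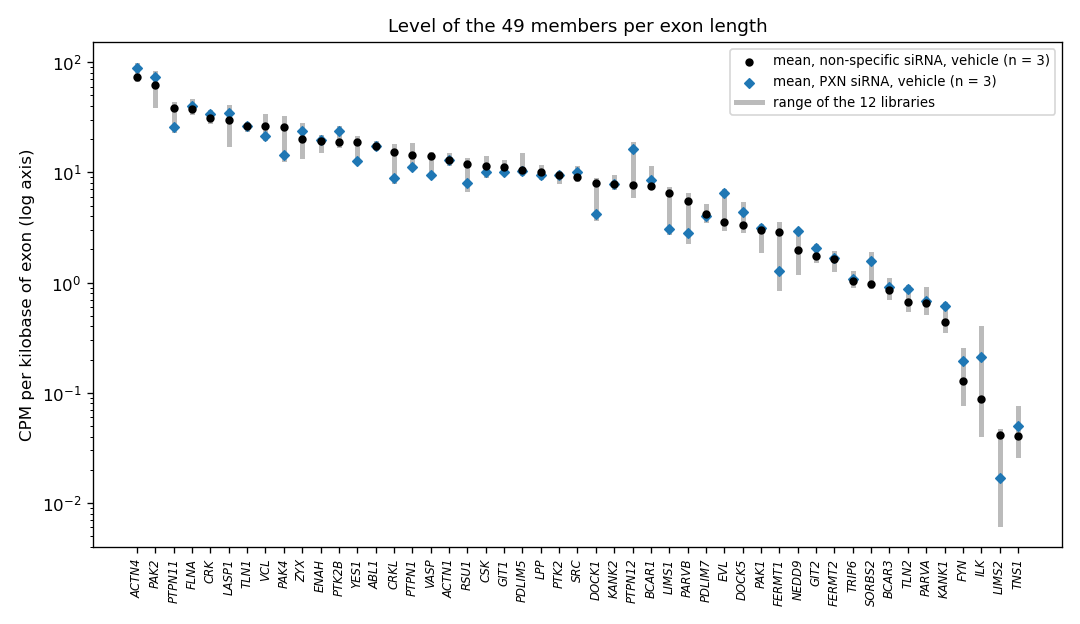
CPM per kilobase of exon (log axis) for the 49 genes, ordered by their mean with non-specific siRNA and vehicle (black points, n = 3), with the PXN siRNA vehicle mean (blue diamonds, n = 3) and the range of all 12 libraries (grey bars). Levels run from 73.7 for ACTN4 to 0.0408 for TNS1, and the diamonds of LIMS1, CRKL and DOCK1 lie below their black points while that of PTPN12 lies above.

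LIMS1, CRKL and DOCK1 were among the genes that fell most with PXN siRNA, and the 250 bases before their RefSeq starts (GRCh38.p14, all on the plus strand) are shown to set their start regions side by side. They lie at chr2:108534220-108534469 for LIMS1, at chr22:20917157-20917406 for CRKL and at chr10:126905178-126905427 for DOCK1. Capitals mark GC boxes (GGGCGG, either strand) and CCAAT boxes (CCAAT, either strand).
LIMS1: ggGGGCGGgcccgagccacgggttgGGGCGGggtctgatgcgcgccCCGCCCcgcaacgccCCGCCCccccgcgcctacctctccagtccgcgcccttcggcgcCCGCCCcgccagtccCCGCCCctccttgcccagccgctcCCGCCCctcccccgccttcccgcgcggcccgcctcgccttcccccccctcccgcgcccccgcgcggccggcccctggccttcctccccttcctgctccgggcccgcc
CRKL: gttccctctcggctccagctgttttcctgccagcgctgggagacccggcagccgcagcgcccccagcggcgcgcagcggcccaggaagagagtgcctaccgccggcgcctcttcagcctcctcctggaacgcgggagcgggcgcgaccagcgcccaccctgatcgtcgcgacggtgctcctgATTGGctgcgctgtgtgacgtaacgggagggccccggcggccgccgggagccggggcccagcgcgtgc
DOCK1: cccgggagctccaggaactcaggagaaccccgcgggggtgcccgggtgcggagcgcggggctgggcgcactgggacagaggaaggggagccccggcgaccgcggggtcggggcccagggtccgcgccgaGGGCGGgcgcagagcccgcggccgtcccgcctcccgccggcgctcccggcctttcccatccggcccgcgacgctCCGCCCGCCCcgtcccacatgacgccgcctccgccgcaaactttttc
The LIMS1 window, 1 of 4 RefSeq starts of the gene and the one furthest upstream, held 7 GC boxes and was 84% G or C. The DOCK1 window held 3 GC boxes, and the CRKL window held none but 1 CCAAT box. Neither motif was present in all 3 windows. Which LIMS1 start is used in LNCaP cannot be read from counts per gene. Of the 49 genes, 42 matched the RefSeq table, with 93 starts. A GC box occurred in 49.5% of these windows against 42.6% of 35116 windows of all genes, CCAAT in 23.7% against 32%, the androgen receptor half-site letters AGAACA in 16.1% against 12.4%, the AP-1 letters TGACTCA in 8.6% against 4.2%, and the ETS letters CCGGAAGT in 0% against 3.42% (both strands searched in each). The other motifs searched in the same way were the CArG letters CCWWWWWWGG (W, A or T), in 4.3% against 1.16%, and the CRE letters TGACGTCA, in 2.15% against 1.65%. The TEAD letters GGAATG occurred in 10.8% against 11.9%, and the TATA letters TATAAA in 7.53% against 10.7%. Starts of 1 gene overlap, and a match of letters is a description and not a binding site.

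PXN siRNA was followed by changes in both directions among these genes. Under vehicle, 12 of the 49 rose and 15 fell at an adjusted p under 0.05 (edgeR quasi-likelihood test, Benjamini-Hochberg over all 18468 genes), while 23.9% of all genes rose and 26.3% fell. Under DHT, 17 rose and 15 fell, against 25.0% and 26.7% of all genes. With a fold change of at least 1.5 as well, 4 rose and 8 fell under each treatment. The shares of all genes were 13.9% up and 9.89% down under vehicle, and 15.2% up and 10.1% down under DHT. The median log2 fold change over the 49 was 0.06 under vehicle and 0.02 under DHT, against 0.02 and 0.03 over all genes. In all, 55.1% of the 49 were called under vehicle and 65.3% under DHT, against 50.2% and 51.8% of all genes. These counts, and those by role below, do not use the replicate number. With that number as a block, which its correlations allow under vehicle, 18 rose and 15 fell there. The block added BCAR1, FYN, LASP1, PAK2, SRC and ZYX, and called 10628 of all 18468 genes, against 9276 without it.

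The comparisons under vehicle and under DHT share no library, and the calls went the same way in both. Of the 49 genes, 10 were higher in both, 13 lower in both, and none was called in opposite directions. Among all 18468 genes, 3609 were higher in both, 4260 lower in both and 6 called in opposite directions. Another 4 of the 49 were called under vehicle alone and 9 under DHT alone, against 1401 and 1686 of all 18468 genes. This does not show that their response differed. Of the 9, BCAR1, FYN, LASP1, PAK2, SRC and ZYX were called under vehicle too with the replicate block. Across the 49 genes the log2 fold changes under both treatments had Pearson r = 0.932 and Spearman rho = 0.906, against r = 0.89 across all genes, given as a description because genes are not independent replicates. LIMS1, CRKL, DOCK1, PAK4, PARVB, FERMT1 and PTPN11 fell at least 1.5-fold in both, and PTPN12 and EVL rose at least 1.5-fold in both. The first 6 of these, PTPN12 and EVL also passed a stricter test against a 1.5-fold change, as the only members to do so under either treatment. Among all 18468 genes, 1473 were called and fell at least 1.5-fold in both comparisons, and 2027 were called and rose at least 1.5-fold in both.

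**Figure D2:**
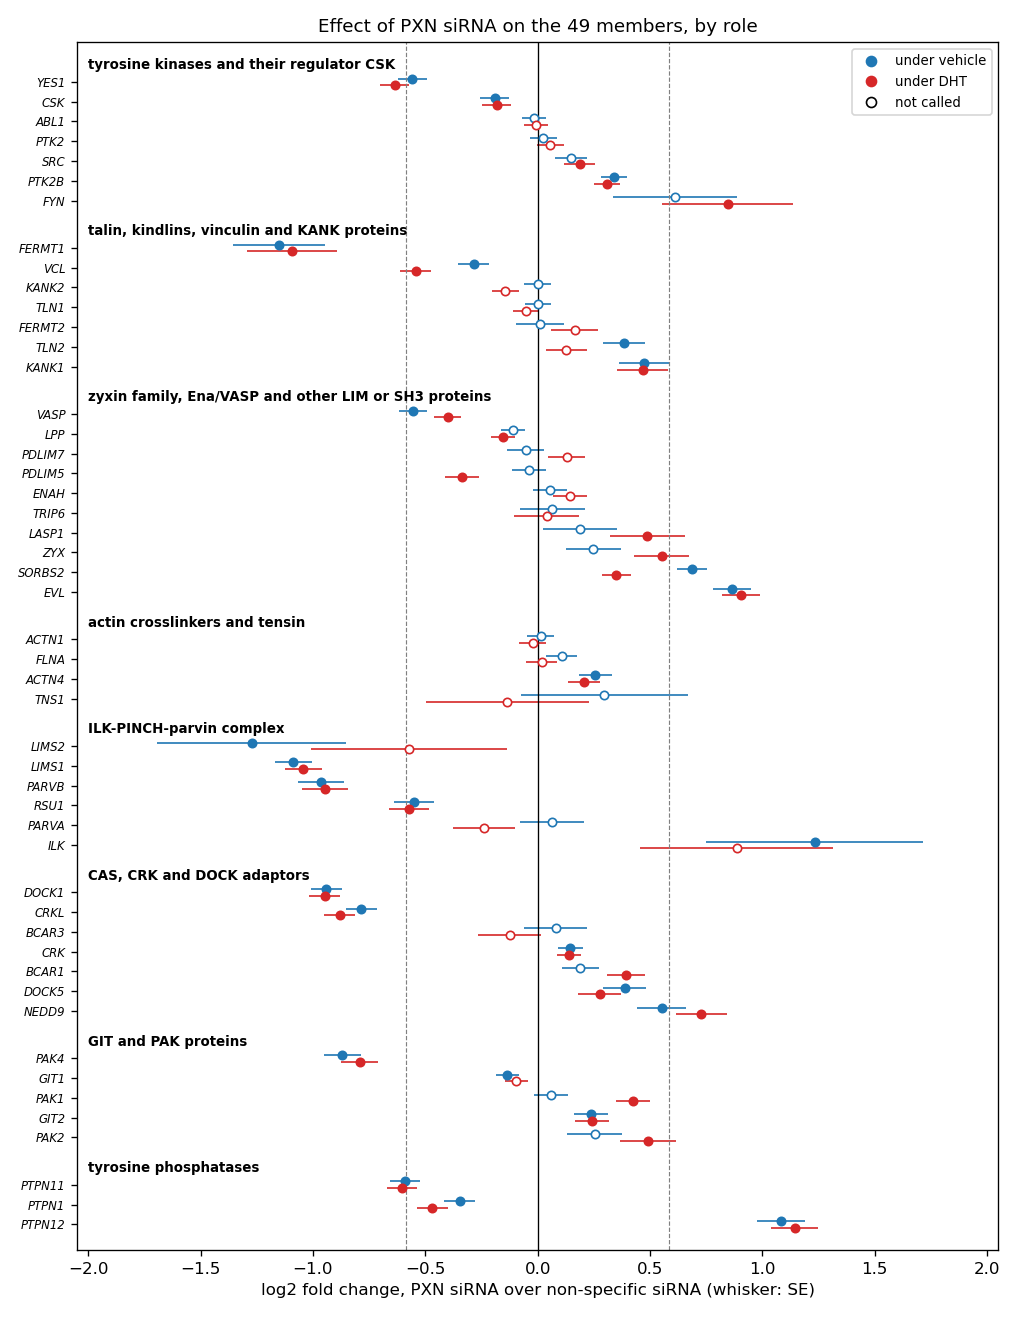
Log2 fold change of each of the 49 genes, PXN siRNA over non-specific siRNA, under vehicle (blue) and under DHT (red), grouped by role. Whiskers are SE, filled points passed an adjusted p of 0.05, open points did not, and dashed lines mark a 1.5-fold change; LIMS1, CRKL, DOCK1, PAK4 and PARVB lie left of the dashed line in both, and PTPN12 and EVL right of it.

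Of the 6 genes for the complex of integrin-linked kinase, PINCH and parvin, 4 fell and 1 rose with PXN siRNA under vehicle (median log2 fold change -0.76). Under DHT, 3 fell and none rose (median -0.57). Among all genes, 26.3% (vehicle) and 26.7% (DHT) fell, and 23.9% and 25.0% rose. The genes of the complex that fell in both were LIMS1, PARVB and RSU1. LIMS1 encodes PINCH1, the LIM-domain protein that ties ILK into the complex. With non-specific siRNA it stood at 51.7, 45.1 and 54.9 CPM under vehicle and at 47.1, 49.5 and 53.3 CPM under DHT. With PXN siRNA it stood at 22.6, 24.8 and 23.9 CPM under vehicle and at 26.3, 23.0 and 23.5 CPM under DHT. All 6 PXN siRNA libraries lay below all 6 others, and within each set the vehicle and DHT libraries overlapped. The log2 fold change was -1.09 ± 0.08 under vehicle (SE, adjusted p = 1.79e-07) and -1.04 ± 0.08 under DHT (adjusted p = 2.72e-07). LIMS1 lies on chromosome 2 at 108534355 to 108687246 (GRCh38, plus strand).

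PARVB, which encodes β-parvin, an actin-binding partner of ILK and paxillin, fell as well. It stood at 42.7, 38.8 and 41.5 CPM (vehicle) and 46.2, 40.3 and 44.1 CPM (DHT) with non-specific siRNA, and at 17.5, 25.1 and 20.5 CPM (vehicle) and 21.8, 23.6 and 22.3 CPM (DHT) with PXN siRNA. The sets did not overlap, and the log2 fold changes were -0.96 ± 0.10 (adjusted p = 3.45e-06) and -0.95 ± 0.10 (adjusted p = 3.74e-06). RSU1, the Ras suppressor that binds PINCH, fell by 0.55 ± 0.09 and by 0.57 ± 0.09 on the log2 scale. PARVA (α-parvin) was not called, at 0.06 ± 0.14 and -0.24 ± 0.14. The genes of the complex with few counts gave weak calls. LIMS2 was called lower under vehicle (-1.27 ± 0.42, adjusted p = 0.0206) at 0.0545 to 0.379 CPM, and the call was lost without replicate 1 or 3 of the non-specific siRNA vehicle group (adjusted p = 0.0543 and 0.0556) or replicate 1 of the PXN siRNA vehicle group (0.0916). ILK was called higher under vehicle (1.23 ± 0.48, adjusted p = 0.0452) although its groups overlapped, at 0.146 to 0.46 CPM against 0.444 to 0.954 CPM. That call was lost without replicate 1 or 3 of non-specific siRNA with vehicle (adjusted p = 0.161 and 0.0985), its DHT replicate 1 (0.0508), replicate 1 or 2 of PXN siRNA with vehicle (0.159 and 0.1002) or its DHT replicate 2 (0.0553). Given its overlap with TAF10, ILK is uncertain.

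Of the 7 CAS, CRK and DOCK genes, which pass phosphotyrosine signals from paxillin and CAS to Rac, 3 rose and 2 fell under vehicle. Under DHT 4 rose and 2 fell, where 50.2% (vehicle) and 51.8% (DHT) of all genes were called. The 2 that fell were an adaptor and an exchange factor. CRKL, an SH2 and SH3 adaptor, stood with non-specific siRNA at 84.6, 74.8 and 86.7 CPM under vehicle and at 88.3, 84.3 and 92.1 CPM under DHT. With PXN siRNA it stood at 47.4, 49.6 and 45.9 CPM under vehicle and at 48.2, 50.8 and 44.8 CPM under DHT. The 2 siRNA sets did not overlap under either treatment. The log2 fold change was -0.78 ± 0.07 (adjusted p = 6.44e-07) under vehicle and -0.88 ± 0.07 (adjusted p = 2.65e-07) under DHT. CRKL lies on chromosome 22 at 20917426 to 20953749 (GRCh38, plus strand).

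DOCK1 encodes DOCK180, the Rac exchange factor that CRK adaptors recruit, and had the smallest p of all 49 genes in both comparisons. It stood at 68.1, 61.8 and 64.5 CPM (vehicle) and 68.8, 66.0 and 67.8 CPM (DHT) with non-specific siRNA, and at 33.9, 36.3 and 31.1 CPM (vehicle) and 37.4, 34.5 and 33.2 CPM (DHT) with PXN siRNA. The sets were far apart, with log2 fold changes of -0.94 ± 0.07 (adjusted p = 1.37e-07) and -0.95 ± 0.07 (adjusted p = 1.54e-07). Its relative DOCK5 rose, by 0.39 ± 0.10 and 0.28 ± 0.10, and so did NEDD9 (the CAS protein HEF1), by 0.55 ± 0.11 and 0.73 ± 0.11. BCAR1, which encodes p130CAS, was called under DHT alone (0.39 ± 0.08, adjusted p = 0.00117). Its value under vehicle was 0.19 ± 0.08 (adjusted p = 0.0718), and with the replicate number as a block, which the number's correlations allow under vehicle, it passed there too (adjusted p = 0.042). CRK rose by 0.15 ± 0.05 and 0.14 ± 0.05, small calls that were each lost when any 1 library was left out. BCAR3, an adaptor that binds CAS proteins, was not called (0.08 ± 0.14 and -0.12 ± 0.14).

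**Figure D3:**
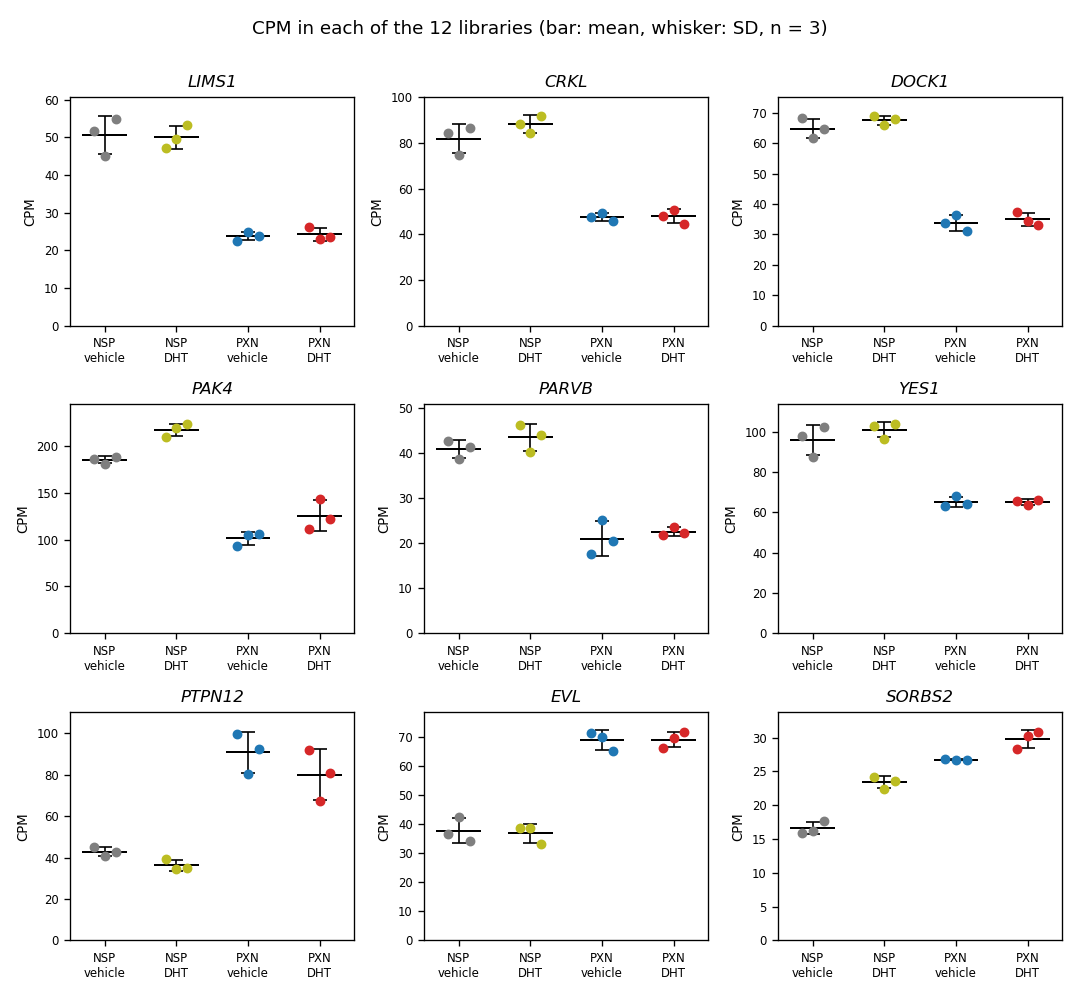
CPM in each of the 12 libraries (points), with the mean (bar) and SD (whisker, n = 3) of each group, for LIMS1, CRKL, DOCK1, PAK4, PARVB, YES1, PTPN12, EVL and SORBS2 (NSP, non-specific siRNA; PXN, PXN siRNA); each vertical axis starts at 0. LIMS1 lies at 45.1 to 54.9 CPM in the non-specific siRNA libraries and at 22.6 to 26.3 CPM in the PXN siRNA libraries, while PTPN12 moves the other way, from 34.6 to 45.1 CPM up to 67.4 to 99.8 CPM.

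The 5 GIT and PAK genes encode the Arf GTPase-activating scaffolds that bind paxillin and the kinases that act below Rac and CDC42. Of them, 1 rose and 2 fell under vehicle, and 3 rose and 1 fell under DHT, with 50.2% and 51.8% of all genes called. PAK4 fell in both. It stood at 186, 181 and 189 CPM (vehicle) and 210.2, 219 and 223 CPM (DHT) with non-specific siRNA, and at 93.4, 105 and 106 CPM (vehicle) and 111, 144 and 122 CPM (DHT) with PXN siRNA. No PXN siRNA library reached the lowest of the others, and the log2 fold changes were -0.87 ± 0.08 (adjusted p = 1.19e-06) and -0.79 ± 0.08 (adjusted p = 2.52e-06). The group I kinases PAK1 and PAK2 went the other way under DHT, by 0.42 ± 0.08 and 0.49 ± 0.12, and were not called under vehicle (0.06 ± 0.07 and 0.25 ± 0.12). With the replicate block PAK2 passed under vehicle as well (adjusted p = 0.000401). GIT2 rose by 0.24 ± 0.08 in both, and GIT1 was called lower under vehicle (-0.14 ± 0.05, adjusted p = 0.0417) but not under DHT (-0.09 ± 0.05).

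All 3 tyrosine phosphatases were called in both comparisons, 1 up and 2 down, where 50.2% (vehicle) and 51.8% (DHT) of all genes were called. PTPN12, which encodes PTP-PEST, a phosphatase that binds paxillin and acts on p130CAS, had the most significant rise. It stood at 45.1, 40.9 and 42.6 CPM (vehicle) and 39.4, 34.6 and 34.9 CPM (DHT) with non-specific siRNA, and at 99.8, 80.2 and 92.6 CPM (vehicle) and 92.0, 67.4 and 81.0 CPM (DHT) with PXN siRNA. Even the lowest PXN siRNA library lay above the highest of the others, and the log2 fold changes were 1.08 ± 0.11 (adjusted p = 1.44e-06) and 1.14 ± 0.11 (adjusted p = 9.2e-07). PTPN11, the phosphatase SHP2, fell by 0.59 ± 0.07 and by 0.60 ± 0.07, and PTPN1 (PTP1B) fell by 0.35 ± 0.07 and by 0.47 ± 0.07 on the log2 scale.

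Among the 7 tyrosine kinase genes, counting CSK, which holds Src kinases inactive, 1 rose and 2 fell under vehicle. Under DHT 3 rose and 2 fell, with 50.2% (vehicle) and 51.8% (DHT) of all genes called. PTK2, encoding focal adhesion kinase, was not called, with log2 fold changes of 0.03 ± 0.06 and 0.06 ± 0.06, and stood at 122 to 134 CPM against 128 to 135 CPM under vehicle. Its relative PTK2B (PYK2) rose, by 0.34 ± 0.06 and 0.31 ± 0.06. YES1, a Src-family kinase, fell. It stood at 98.2, 87.5 and 102 CPM (vehicle) and 103, 96.7 and 104 CPM (DHT) with non-specific siRNA, and at 63.3, 68.2 and 64.2 CPM (vehicle) and 65.7, 63.6 and 66.0 CPM (DHT) with PXN siRNA. The sets did not overlap, and the log2 fold changes were -0.56 ± 0.06 (adjusted p = 6.5e-06) and -0.64 ± 0.06 (adjusted p = 1.9e-06). SRC (0.15 ± 0.07 and 0.19 ± 0.07) and FYN (0.61 ± 0.28 and 0.85 ± 0.29) were called higher under DHT alone, FYN from at most 66 counts in a library. With the replicate block both passed under vehicle (adjusted p = 0.0167 and 0.0293). CSK fell by 0.19 ± 0.06 and by 0.18 ± 0.06, and ABL1 was not called (-0.02 ± 0.05 and -0.01 ± 0.05).

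Calls among the integrin activators and their partners went in both directions. Of 7 genes for talins, kindlins, vinculin and KANK proteins, 2 rose and 2 fell under vehicle, and 1 rose and 2 fell under DHT. The shares of all genes called were 50.2% (vehicle) and 51.8% (DHT). TLN1, the main talin here, was not called (0.00 ± 0.06 and -0.05 ± 0.06). FERMT1, which encodes kindlin-1, the epithelial kindlin, fell from 12.97, 15.1 and 17.7 CPM to 4.80, 9.72 and 6.12 CPM under vehicle, and from 15.6, 17.4 and 18.4 CPM to 6.45, 9.25 and 8.34 CPM under DHT. The groups did not overlap although the PXN siRNA libraries spread widely, and the log2 fold changes were -1.15 ± 0.20 (adjusted p = 0.000302) and -1.09 ± 0.20 (adjusted p = 0.000383). FERMT2 (kindlin-2) was not called (0.01 ± 0.11 and 0.16 ± 0.11). VCL, vinculin, which strengthens the talin link to actin, fell by 0.29 ± 0.07 and by 0.54 ± 0.07. KANK1, which binds talin at the rim of adhesions, rose by 0.47 ± 0.11 in both, TLN2 rose under vehicle alone (0.38 ± 0.09, against 0.13 ± 0.09 under DHT), and KANK2 was not called (-0.00 ± 0.06 and -0.14 ± 0.06).

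Of the 10 genes for zyxin, Ena/VASP and other LIM or SH3 proteins, 2 rose and 1 fell under vehicle. Under DHT 4 rose and 3 fell, while 50.2% (vehicle) and 51.8% (DHT) of all genes were called. EVL, an Ena/VASP protein that promotes actin elongation, rose from 36.7, 42.7 and 34.2 CPM to 71.6, 70.2 and 65.2 CPM under vehicle, and from 38.8, 38.9 and 33.1 CPM to 66.3, 69.7 and 71.7 CPM under DHT. All PXN siRNA libraries lay above all others, and the log2 fold changes were 0.87 ± 0.08 (adjusted p = 1.51e-06) and 0.91 ± 0.08 (adjusted p = 9.8e-07). The other Ena/VASP genes were not called higher: VASP fell by 0.56 ± 0.06 and by 0.40 ± 0.06, and ENAH was not called (0.06 ± 0.08 and 0.14 ± 0.08). SORBS2, an adaptor with SH3 domains that binds vinculin, rose from 15.9, 16.2 and 17.7 CPM to 26.8, 26.7 and 26.7 CPM under vehicle, and from 24.1, 22.4 and 23.6 CPM to 28.3, 30.2 and 30.9 CPM under DHT. No group overlapped another within a treatment, and the log2 fold changes were 0.68 ± 0.07 (adjusted p = 1.57e-06) and 0.35 ± 0.07 (adjusted p = 0.000442).

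ZYX, zyxin, and LASP1 were called higher under DHT (0.55 ± 0.12, and 0.49 ± 0.17 with overlapping groups), and PDLIM5 and LPP lower (-0.33 ± 0.07 and -0.16 ± 0.05). Under vehicle these 4 genes stood at 0.25 ± 0.12, 0.19 ± 0.16, -0.04 ± 0.07 and -0.11 ± 0.05 and were not called. The replicate block brought in ZYX and LASP1 there (adjusted p = 0.000597 and 0.0144). PDLIM7 and TRIP6 were not called in either comparison, at -0.05 to 0.13. Of the 4 actin crosslinker and tensin genes, ACTN4 alone rose, by 0.26 ± 0.07 and 0.21 ± 0.07, while ACTN1 (0.01 and -0.02), FLNA (0.11 and 0.02) and TNS1 (0.30 and -0.13) were not called. The called share of all genes was 50.2% under vehicle and 51.8% under DHT.

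The smallest of these calls depended on single libraries and on the test or filter used. Under vehicle 20 of the 27 called genes, and under DHT 23 of the 32, kept their call whichever library was left out, among them all 9 genes that moved at least 1.5-fold in both. Under vehicle, besides LIMS2 and ILK, the CRK call was lost without any 1 of the 12 libraries (adjusted p = 0.0686 to 0.2). ACTN4 missed the threshold without replicate 3 of non-specific siRNA with vehicle or replicate 1 or 3 of PXN siRNA with vehicle (0.0522 to 0.0689). Of the same 2 groups, CSK missed it without replicate 1 of the first or replicate 2 of the second (0.0691 and 0.0602), GIT1 without replicate 1 of the first or replicates 2 or 3 of the second (0.0612 to 0.0866), and GIT2 without replicates 1 or 3 of the first or 1 or 2 of the second (0.0542 to 0.119). Under DHT, CRK was again lost without any 1 library (0.0527 to 0.289), ACTN4 without any but replicate 1 of non-specific siRNA with DHT and replicates 1 and 2 of PXN siRNA with vehicle (0.0524 to 0.169), and SRC without any but replicate 1 of non-specific siRNA with DHT and replicate 2 of PXN siRNA with vehicle (0.0695 to 0.228). The remaining losses came from the DHT libraries. For the non-specific siRNA they were replicates 1 and 3 for DOCK5, 2 and 3 for FYN and LASP1, 3 for GIT2 and CSK, and 2 for LPP. For the PXN siRNA they were replicates 2 and 3 for DOCK5, 1 for FYN, 1 and 3 for GIT2 and LASP1, and 2 for LPP. Adjusted p then reached 0.118 for DOCK5, 0.184 for FYN, 0.104 for GIT2, 0.137 for LASP1, 0.0812 for CSK and 0.0544 for LPP. The count of genes higher under DHT fell from 17 to 10 without replicate 3 of non-specific siRNA with DHT, and to 11 without replicate 1 or replicate 3 of PXN siRNA with DHT. The balance of directions also depends on scaling. Upper-quartile scaling moved the median of all genes to 0.117 and 0.130, and put 18 members higher and 13 lower under vehicle, and 21 and 13 under DHT. CSK and GIT1 under vehicle, and CSK and LPP under DHT, lost their calls with it. DESeq2's Wald test did not call GIT1 or LIMS2 under vehicle (adjusted p = 0.0700 and 0.0678), or CRK, LASP1 and SRC under DHT (0.0617, 0.0560 and 0.0570). limma-voom did not call ILK under vehicle (adjusted p = 0.0572), and GIT1 also missed without the mitochondrially encoded genes (0.0728). Other filters on low counts, DESeq2's size factors or a fit of only the groups compared each ended 1 or more of the calls of CRK, CSK, GIT1 and GIT2 under vehicle and of ACTN4, CRK, CSK, GIT2, LPP and SRC under DHT.

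A set of 17 pairs of paralogs or near relatives, listed with the falls of LIMS1 and CRKL known, was compared by the difference between PXN siRNA and non-specific siRNA in the log2 ratio of the 2 genes within each library (0.5 CPM added to each). With siRNA labels permuted within treatment, 400 arrangements gave a smallest possible exact two-sided p of 0.005. After adjustment over the 17 pairs, 15 passed. The ratios restate the fold changes given above. With 50.2% and 51.8% of all genes called, and no passing rate computed for other pairs of genes, this count is a description and sets paralogs apart from no other pairs. CRKL over CRK fell by 0.97 on the log2 scale (exact permutation adjusted p = 0.00607), from a log2 ratio of -0.547 to -1.51, by 0.92 under vehicle and by 1.01 under DHT. DOCK1 over DOCK5 fell by 1.27, FERMT1 over FERMT2 by 1.19, and YES1 over FYN by 1.07. PARVA over PARVB rose by 0.86, SRC over YES1 by 0.76, ENAH over VASP by 0.57 and KANK1 over KANK2 by 0.51, while ENAH over EVL fell by 0.78. The shifts of GIT1 over GIT2 (-0.35), PTK2 over PTK2B (-0.28), TLN1 over TLN2 (-0.28) and ACTN1 over ACTN4 (-0.23) were smaller, and all of the pairs named so far had the same exact permutation adjusted p of 0.00607. LIMS1 over LIMS2 fell by 0.76, but LIMS2 lay below 0.4 CPM in every library and the shift was -0.38 with 0.1 CPM added in place of 0.5 (exact permutation adjusted p = 0.085). SRC over FYN passed narrowly (-0.31, exact permutation adjusted p = 0.034). It was -0.47 with 0.1 CPM added and -0.20 with 1 CPM added, where it missed (exact permutation adjusted p = 0.0567). It also missed without replicate 1 of non-specific siRNA with vehicle (adjusted p = 0.0638), its replicate 2 (0.0567), replicate 3 of non-specific siRNA with DHT (0.051) or replicate 1 of PXN siRNA with vehicle (0.0567). PAK1 over PAK2 (-0.14, exact permutation adjusted p = 0.12) and PDLIM5 over PDLIM7 (-0.22, 0.0744) did not pass. Without 1 library, PDLIM5 over PDLIM7 passed when replicate 1 of non-specific siRNA with vehicle (0.0453) or replicate 2 of PXN siRNA with vehicle (0.0478) was left out, and PAK1 over PAK2 passed without replicate 2 of PXN siRNA with DHT (0.0478).

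**Figure D4:**
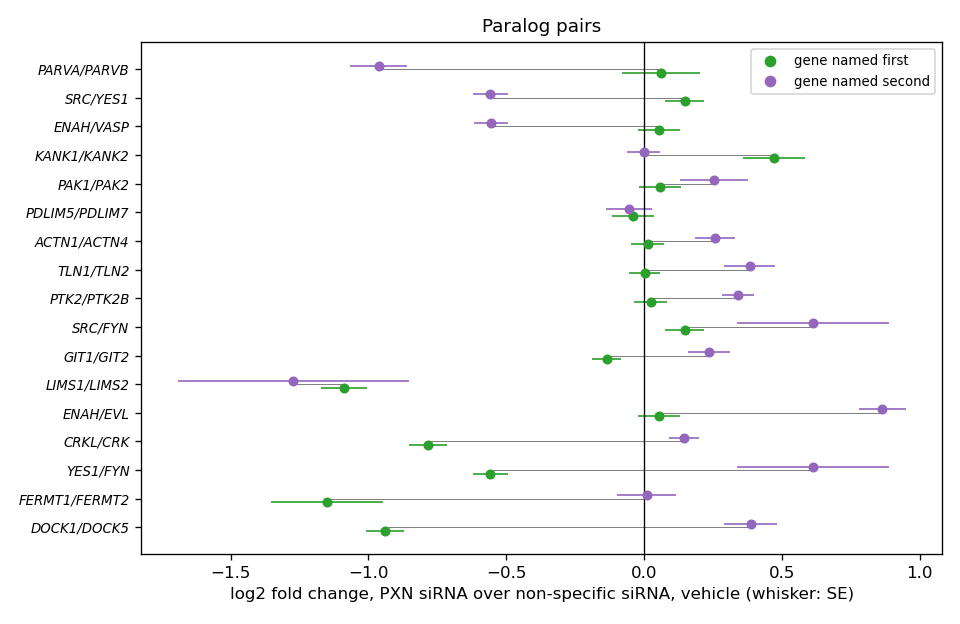
Log2 fold change of both genes of each of 17 pairs, PXN siRNA over non-specific siRNA under vehicle (green, the gene named first, purple, the gene named second, whiskers SE). DOCK1 (-0.94) and DOCK5 (0.39), and CRKL (-0.78) and CRK (0.15), lie on opposite sides of 0, while PAK1 (0.06) and PAK2 (0.25) lie on the same side.

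With non-specific siRNA, DHT changed 4 of the 49 genes, and 15 with the replicate number as a block, where the numbers were taken to pair the libraries. Without the block, 2 rose and 2 fell (edgeR quasi-likelihood test, Benjamini-Hochberg), where 2.72% of all genes rose and 2.16% fell, and none of the 4 reached 1.5-fold. SORBS2 rose from 15.9, 16.2 and 17.7 CPM under vehicle to 24.1, 22.4 and 23.6 CPM under DHT (log2 fold change 0.49 ± 0.07, adjusted p = 0.000643). PAK1, a kinase activated by Rac and CDC42, fell from 19.99, 18.2 and 18.7 CPM to 14.5, 12.5 and 13.3 CPM (-0.50 ± 0.08, adjusted p = 0.00165). In both genes the groups were well apart, and both kept their call whichever library was left out. NEDD9 fell from 22.8, 19.8 and 19.4 CPM to 17.9, 13.8 and 12.9 CPM (-0.47 ± 0.11, adjusted p = 0.0243). PDLIM5, which encodes a LIM protein that binds α-actinin, rose from 114, 113 and 122 CPM to 126, 144 and 160.1 CPM (0.30 ± 0.08, adjusted p = 0.0318). These groups did not overlap, but NEDD9 and PDLIM5 missed the threshold without replicate 1 of the vehicle group (adjusted p = 0.128 and 0.110), replicate 2 of the DHT group (0.144 and 0.107) or replicate 3 of the DHT group (0.153 and 0.169), NEDD9 also without vehicle replicate 3 (0.0584) and PDLIM5 without vehicle replicate 2 (0.0859). Without vehicle replicate 2, 4 of the 49 rose, and without DHT replicate 1, 4 fell. LIMS1 (-0.02 ± 0.08) and CRKL (0.11 ± 0.07) were not called.

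Libraries with the same replicate number deviated together in this comparison, and with the number as a block the count rose to 8 higher and 7 lower, while 6.17% of all genes were then higher and 5.93% lower. The block added DOCK5, KANK2, PAK4, PARVA, TLN2 and VCL upward and ENAH, LASP1, PAK2, PTPN12 and ZYX downward. The largest of the added values were those of LASP1 (-0.44, adjusted p = 0.000207), PAK2 (-0.43, 3.18e-05), PARVA (0.37, 0.0161) and ZYX (-0.35, 0.000255). PAK2, for example, stood at 429, 337 and 392 CPM under vehicle and at 332, 256 and 274 CPM under DHT, so that replicate 1 was highest and replicate 2 lowest in both groups. DESeq2's Wald test called 7 of the 49 (adding DOCK5, PAK2 and VCL) and 1168 of all genes, and limma-voom 4 and 896.

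After PXN siRNA, DHT moved none of the 49 past the threshold (edgeR quasi-likelihood test), and 0.184% of all genes, 34 in number. At an unadjusted p under 0.05 there were 7 of the 49, against 7.46% of all genes, and DESeq2 and limma-voom also called none. PAK4 had the smallest p, with 93.4, 105 and 106 CPM under vehicle against 111, 144 and 122 CPM under DHT (log2 fold change 0.31 ± 0.08, adjusted p = 0.228). Its groups did not overlap, and with the replicate block it passed (0.31, adjusted p = 0.0214), as the only one of the 49, with 1.87% of all genes. GIT1 stood at 58.9, 55.5 and 57.3 CPM against 65.9, 64.1 and 62.6 CPM (0.16 ± 0.05, adjusted p = 0.367). BCAR1 stood at 85.7, 67.1 and 84.3 CPM against 101, 90.9 and 89.5 CPM (0.24 ± 0.08, adjusted p = 0.423), and NEDD9 at 30.5, 29.4 and 30.8 CPM against 26.1, 21.9 and 25.8 CPM (-0.30 ± 0.11, adjusted p = 0.49). As for PAK4, the groups of these 3 did not overlap, which adds no support for genes named by their small p. None of these 3 passed, with or without the block.

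**Figure D5:**
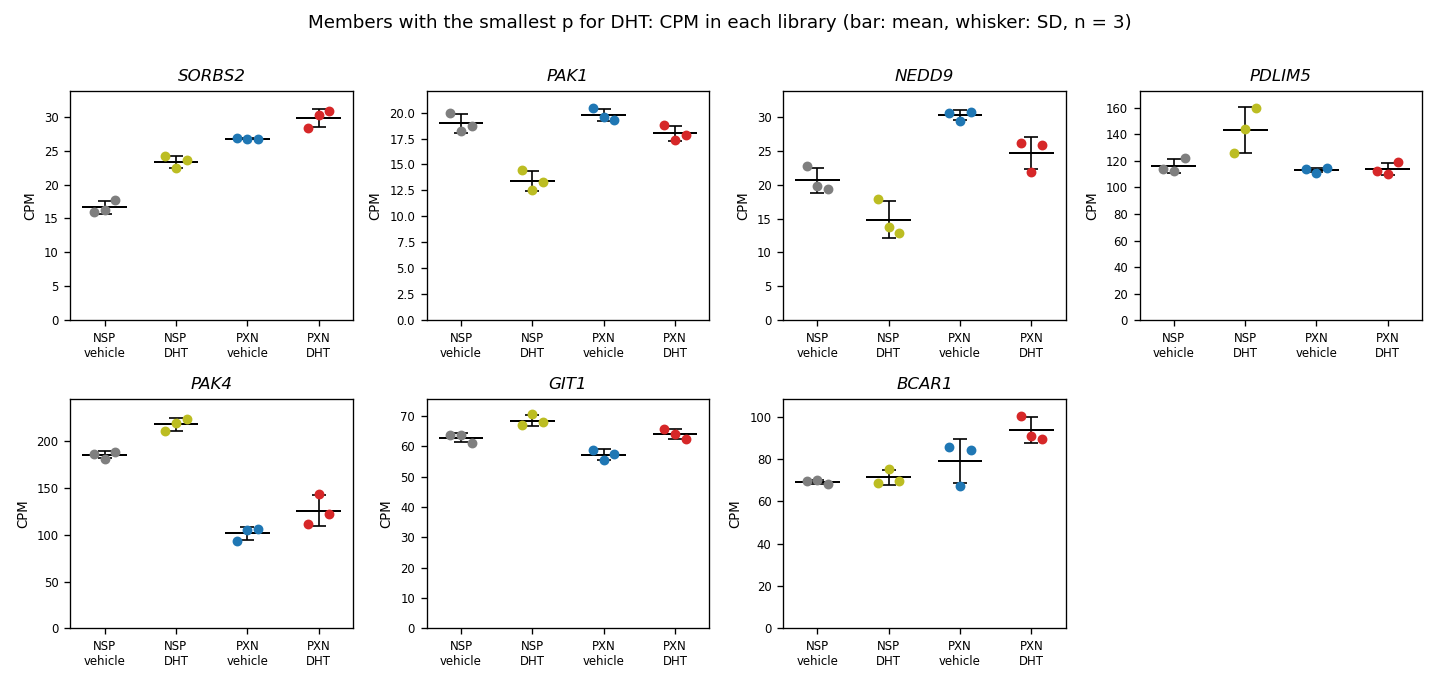
CPM in each of the 12 libraries (points), with the mean (bar) and SD (whisker, n = 3) of each group, for the 4 genes with the smallest p in each DHT comparison, which are SORBS2, PAK1, NEDD9 and PDLIM5 with non-specific siRNA and PAK4, GIT1, BCAR1 and NEDD9 with PXN siRNA; each vertical axis starts at 0. PAK1 lies at 12.5 to 14.5 CPM with non-specific siRNA and DHT and at 17.4 to 20.4 CPM in the other 3 groups, and PDLIM5 reaches 126 to 160.1 CPM in that group alone.

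The test of the difference itself, the interaction of DHT and PXN siRNA, called none of the 49 and 0% of all genes (edgeR quasi-likelihood test). At an unadjusted p under 0.05 there were 4 of the 49, against 4.21% of all genes, and DESeq2, limma-voom and the replicate block called none of the 49 either. SORBS2 and PAK1 had the smallest p, with interaction log2 values of -0.33 ± 0.09 (adjusted p = 0.729) and 0.37 ± 0.11 (adjusted p = 0.760). A different response of these genes to DHT after PXN siRNA was therefore not shown. For LIMS1 and CRKL the interaction was 0.05 ± 0.12 and -0.10 ± 0.10.

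The wider set of 48 other focal adhesion genes, of which 43 were tested, served as a setting for these values. Of the 43, 13 rose and 10 fell with PXN siRNA under vehicle and 15 rose and 13 fell under DHT, while DHT raised 3 and lowered 3 with non-specific siRNA and raised 1 with PXN siRNA. In the same order of comparisons, 50.2%, 51.8%, 4.87% and 0.184% of all genes were called. Small p values belonged to ASAP2, an Arf GTPase-activating protein (-1.001 ± 0.084, adjusted p = 4.28e-07, under vehicle) and RAP1B, a small GTPase that promotes integrin activation (1.04 ± 0.11 under DHT). TNS3, a tensin, rose with DHT from 0.554, 0.622 and 0.518 CPM to 2.61, 3.46 and 3.33 CPM with non-specific siRNA (2.46 ± 0.20, adjusted p = 1.97e-05). After PXN siRNA it rose from 0.490, 0.458 and 0.523 CPM to 0.984, 1.39 and 1.27 CPM (1.30 ± 0.22, adjusted p = 0.0322). The second call was lost without any 1 PXN siRNA library other than replicate 1 of the DHT group (adjusted p = 0.0594 to 0.185), and the interaction was -1.16 ± 0.31 (adjusted p = 0.685). ASAP2 also fell with DHT under non-specific siRNA (-0.75 ± 0.08, adjusted p = 0.000134). AJUBA, a LIM protein, had the smallest unadjusted interaction p after TNS3 (0.34 ± 0.09, adjusted p = 0.692).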

How the data were processed

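The authors deposited whole-number counts per gene symbol for 12 libraries, which per the submitters' processing notes came from featureCounts (Subread 1.5.0p3) with Trimmomatic 0.32, STAR 2.4.2a and GRCh38 also named. The kit marked strand, per the labels' protocols. No source used here gives the strand setting, the annotation or how multiply mapped reads were treated.

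Counts were tested in R 4.3.3 with edgeR 4.0.16: filterByExpr (18468 genes kept, 17669 left out), TMM scaling, and 1 quasi-likelihood model of 4 group means over all 12 libraries with 8 residual degrees of freedom. Tests were two-sided and adjusted by Benjamini-Hochberg over all genes kept, with calls at an adjusted p under 0.05. CPM use the TMM-scaled library size. The SE is the log2 fold change divided by the square root of F. limma 3.58.1 and DESeq2 1.42.0 served as alternatives, and figures were drawn in Python 3.11.15 with matplotlib 3.10.9. The model code was tested on simulated data. In genes of at least 5 CPM, 94.8% of simulated 1.5-fold changes and 100% of 2-fold changes were recovered. In genes under 5 CPM these shares were 7.14% and 24.4%. No 2 replicates agreed within sampling noise (chi-square per gene 6.53 to 28.2). Gene positions and exon lengths came from GENCODE 29 and windows before gene starts from RefSeq.

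The genes, lists, pairs and the rule for naming genes were chosen with earlier results of these data known. All 49 genes are accounted for by role. Values in every library are given for LIMS1, CRKL and the genes of smallest p, 8 for each PXN siRNA comparison, 4 for each DHT comparison and 2 for the interaction. PXN and up to 2 other focal adhesion genes in each of the 5 comparisons are also named, PXN with a range per siRNA and TNS3 with values by library. A gene that this rule names is not reported here. FERMT1, PTK2, PAK2 and LASP1 were added after their values were seen.

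The labels give the groups the same replicate numbers without saying what they mark. Deviations from group means were correlated over all tested genes between libraries with the same number, with 0.1 as the limit for pairing. In the PXN siRNA comparison under vehicle the 3 pairs reached 0.121 to 0.210. In the DHT comparisons they reached 0.145 to 0.383 (non-specific siRNA) and 0.1004 to 0.307 (PXN siRNA). All of these exceeded the limit, and the numbers were taken to pair the libraries there. They did not all exceed it in the PXN siRNA comparison under DHT (0.0769 to 0.284) or in the interaction (-0.0256 to 0.383). Alternatives were other scalings, filters and tests, fits of only the groups compared, the block, a test against a 1.5-fold change, and leaving out each library. A fit without mitochondrially encoded genes was added after seeing the data.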

Additional observations from a re-analysis of the deposited data

How the results depend on the processing

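LIMS1, CRKL, DOCK1, PAK4, PARVB, FERMT1, PTPN12 and EVL kept their direction and call under all 22 alternatives in both PXN siRNA comparisons, LIMS1 at -1.19 to -0.99 (vehicle) and -1.13 to -0.94 (DHT) and CRKL at -0.87 to -0.68 and -0.94 to -0.78. No result changed direction past the threshold. Tested against a 1.5-fold change, PXN siRNA left 2 of the 49 genes higher and 6 lower under vehicle (all genes 1087 and 870), and 2 and 6 under DHT (all genes 1304 and 930). Without 1 library, 8 to 12 of the 49 rose and 12 to 15 fell under vehicle, and 10 to 16 rose and 14 to 16 fell under DHT. All genes then higher numbered 3406 to 4332 under vehicle and 3595 to 4612 under DHT, and lower 4390 to 5099 and 4606 to 5278.

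For DHT with non-specific siRNA, the number of the 49 genes higher was 4 with DESeq2's Wald test, 8 with the replicate block, 0 against a 1.5-fold change and 1 to 4 without 1 library. The number lower was 5 with no low-count filter, 1 with only the groups compared, 7 with the block, 0 against a 1.5-fold change and 1 to 4 without 1 library. Of all genes, 1140 were higher with the block, 69 against a 1.5-fold change and 290 to 683 without 1 library, and 239 were lower with only the groups compared, 1096 with the block, 10 against a 1.5-fold change and 124 to 678 without 1 library. For DHT with PXN siRNA, the block called 1 of the 49 higher. Of all genes, 169 were higher with no filter, 130 with DESeq2, 18 with only the groups compared, 249 with the block, 10 against a 1.5-fold change and 10 to 71 without 1 library. Lower were 1 with upper-quartile scaling, 19 with no filter, 13 with DESeq2, 97 with the block and 0 to 13 without 1 library. In the interaction, all genes higher numbered 2 with no filter, 3 with DESeq2, 18 with the block and 0 to 10 without 1 library, and lower 1 with DESeq2 size factors, 33 with no filter, 34 with DESeq2, 40 with the block and 0 to 35 without 1 library. None of the 49 was among these interaction calls. The cause of these differences was not tested.

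The numbers were not taken to pair the libraries for PXN siRNA under DHT or for the interaction. For PXN siRNA under DHT the block gave 18 higher and 17 lower of the 49, adding ENAH, KANK2 and PARVA. It called 10869 of all 18468 genes there, against 9561 without it. For PXN siRNA under vehicle the block gave 18 and 15 and lost no call, with 10628 of all genes called, against 9276 without it. Of the 17 pairs, 14 to 16 passed without 1 library, and 15 with the block, where the smallest exact p is 0.0312. LIMS2, FYN and TNS1 were limited by depth. ILK also had few counts, and the part of its exon overlap with other genes in this was not tested.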

Other observations

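Zyxin, LASP1, PAK2 and PTPN12, genes of different roles, had replicate 1 highest and replicate 2 lowest in each of the 4 groups. LASP1 ran from 257 to 179.7 CPM, 205 to 127, 276 to 209 and 248 to 199 between these replicates, in the order non-specific siRNA with vehicle and with DHT, then PXN siRNA with vehicle and with DHT. These were 4 of the 49 genes (8.16%), against 357 of 18468 tested genes (1.93%). The pattern was noticed in the data and has no test, and the labels do not say what a replicate number marks.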
